A study of Mus musculus with 22 samples.

Results

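Of the 34489 genes in the bulk RNA-seq count table, 10 genes of the integrated stress response and its transcription factor ATF4 were followed while primed epiblast stem cells of the mouse (mEpiSCs) were turned back toward the naive state: Chac1, Nupr1, Atf4, Ddit3, Trib3, Asns, Psat1, Sesn2, Ddit4 and Slc7a11. They were taken by gene symbol as known pathway genes, and the pathway was chosen by measured values, the higher counts of Chac1 and Nupr1 after 10 passages of the reverted cells than after 2 or 3. The difference between those passages is therefore given below as a description without a test, also for the other 8 genes. All 10 symbols were found, in 11 rows of the table, since a second Ensembl gene named Ddit3 (ENSMUSG00000116429) overlaps the main one (ENSMUSG00000025408). That second row held at most 2 counts in any library and was left aside.

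The integrated stress response starts when kinases of the translation factor eIF2 sense a lack of amino acids, misfolded protein, heme deficiency or viral RNA and phosphorylate eIF2, which slows general protein synthesis. Some mRNAs, that of Atf4 among them, are then translated more, and the ATF4 protein turns on genes that import and make amino acids, charge tRNAs and handle oxidative stress. Mouse embryonic stem cells depend on threonine and one-carbon metabolism for their rapid division, and the serine branch of that metabolism lies under ATF4. RNA levels alone do not measure eIF2 phosphorylation or the ATF4 protein.

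Each of the 22 libraries was the only one of its condition. Naive mESCs were 1 library of the Rex1-GFP line, which carries a GFP reporter of the naive marker gene Rex1. Primed mEpiSCs were 1 library of Oct4GIP cells, which carry eGFP and puromycin resistance under the Oct4 promoter, and 1 of 129/MSM cells, a line of mixed 129 and MSM/Ms background. Both primed lines were kept with the growth factors FGF2 and Activin A. Oct4GIP cells on feeder fibroblasts in Basal medium gave 8 whole-culture libraries, 4 at d8 and 4 at d16, in Basal medium alone, with 2iL (LIF with inhibitors of MEK and GSK3), with AICAR or with AICAR+LIF. AICAR, an AMP analog that activates the energy sensor AMPK, was given at 0.5 mM for 6 days and at 1 mM afterwards. After d16, cells went from the medium with activator into 2iL, which itself holds LIF. For reverted cells, activator and LIF below therefore name the treatment up to d16. The reverted cells were sampled after 2 or 3 passages (d16+2–3p, 4 Oct4GIP libraries, AICAR or AICAR+LIF) and after 10 passages (d16+10p, 7 libraries). Of the 7, 2 came from 129/MSM cells, with AICAR or AICAR+LIF. The other 5 came from Oct4GIP cells given AICAR or A769662, each with and without LIF, or metformin with LIF. A769662 and metformin, also AMPK activators, were used at 50 μM and 1 mM. Libraries of a state stand in below as samples of it, so that p-values measure a spread that mixes activators, passages and lines. The labels do not say which basal medium carried 2iL for each expanded library, and passage number and time in culture cannot be told apart.

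Total counts ranged from 438771 in AICAR+LIF d8 to 5290163 in Basal d16, with a median of 2848382. Levels are given as CPM, depth-scaled counts with library sizes adjusted by edgeR's TMM factors, and 3 counts, taken as the floor of detection, were 0.565 CPM in the deepest library and 5.93 CPM in the shallowest. The interval on a ratio of summed counts below is an exact 95% interval and covers counting error only. The summed level of 5 naive markers (Zfp42, Esrrb, Tfcp2l1, Nr5a2, Klf2) was 2001 to 3573 CPM in the 11 reverted libraries and 2971 CPM in naive mESCs, against 16.9 and 24.0 CPM in primed mEpiSCs. The summed level of 8 fibroblast markers, which feeder cells express, was 2656 to 3316 CPM at d8 and 5462 to 49255 CPM at d16, against 6.32 to 90.8 CPM at d16+2–3p and 12.2 to 16.5 CPM at d16+10p. It was 31.6 CPM in primed Oct4GIP and 520 CPM in primed 129/MSM mEpiSCs. The primed epiblast markers Fgf5, Otx2, Pou3f1, Dnmt3b and Lef1 summed to 400 and 1672 CPM in primed mEpiSCs but to 20.05 to 131 CPM in the 8 cultures, whose naive markers summed to 1.89 to 20.9 CPM, so that both sets of stem cell markers were low there. In whole cultures, fewer cells of a type and less RNA per cell cannot be told apart.

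Promoter sequences are shown because ATF4 binds a composite C/EBP-ATF element, here written TGATGNAA, and because most of the 10 genes are known as its targets. RefSeq promoters (250 bases before to 50 bases after a gene's start, GRCm38.p6) were found for all 10 genes, and 5 of the 10 held the element on either strand, against 3.97% of 32851 promoters in the table. The palindromic cAMP element TGACGTCA, which no match of TGATGNAA can equal, was in none of the 10 and in 1.79% of all promoters. Counted from RefSeq's start, which differs from the gene starts given below, the element lay 193 bases upstream in Chac1, 110 in Nupr1 and 23 in Asns, while Slc7a11 had a pair, 66 and 47 bases upstream in opposite directions. In Trib3 it began 15 bases after RefSeq's start, but before the gene start given below, and 30 bases around it are shown. The window of Nupr1 and the element of Asns lie inside the gene spans given below. The matched letters are in capitals, and each sequence runs 5′ to 3′ along the gene's strand.

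Chac1, 250 bases, chr2:119350992-119351241, forward strand: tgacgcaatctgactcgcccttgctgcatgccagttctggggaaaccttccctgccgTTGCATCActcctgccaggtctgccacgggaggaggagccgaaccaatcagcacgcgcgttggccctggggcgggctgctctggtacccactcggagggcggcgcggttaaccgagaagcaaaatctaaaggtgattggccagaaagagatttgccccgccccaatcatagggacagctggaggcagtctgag
Nupr1, 250 bases, chr7:126625471-126625720, reverse strand: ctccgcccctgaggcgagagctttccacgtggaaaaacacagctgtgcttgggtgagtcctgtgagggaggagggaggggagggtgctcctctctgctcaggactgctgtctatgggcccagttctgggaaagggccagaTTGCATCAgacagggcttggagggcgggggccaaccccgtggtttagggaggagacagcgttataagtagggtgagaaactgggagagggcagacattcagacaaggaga
Asns, 250 bases, chr6:7693210-7693459, reverse strand: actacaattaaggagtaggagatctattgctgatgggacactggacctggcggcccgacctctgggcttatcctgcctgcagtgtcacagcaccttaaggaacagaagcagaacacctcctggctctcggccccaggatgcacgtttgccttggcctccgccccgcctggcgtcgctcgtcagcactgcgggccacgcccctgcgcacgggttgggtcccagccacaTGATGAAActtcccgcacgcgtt
Slc7a11, 250 bases, chr3:50443614-50443863, reverse strand: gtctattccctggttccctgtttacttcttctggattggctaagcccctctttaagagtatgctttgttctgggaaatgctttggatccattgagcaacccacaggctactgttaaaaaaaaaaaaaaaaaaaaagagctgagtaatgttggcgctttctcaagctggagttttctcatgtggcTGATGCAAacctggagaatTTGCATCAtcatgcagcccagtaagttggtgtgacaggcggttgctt
Trib3, 30 bases, chr2:152344028-152344057, reverse strand: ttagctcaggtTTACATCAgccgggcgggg

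The capitals read TGATGCAA in Chac1, Nupr1 and both sites of Slc7a11 after turning those on the other strand, TGATGAAA in Asns and TGATGTAA in Trib3. Atf4, Ddit3, Psat1, Sesn2 and Ddit4 held no match in this window, which says only that these letters are not there. A match is a description of letters and not a measured binding site.

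**Figure D1:**
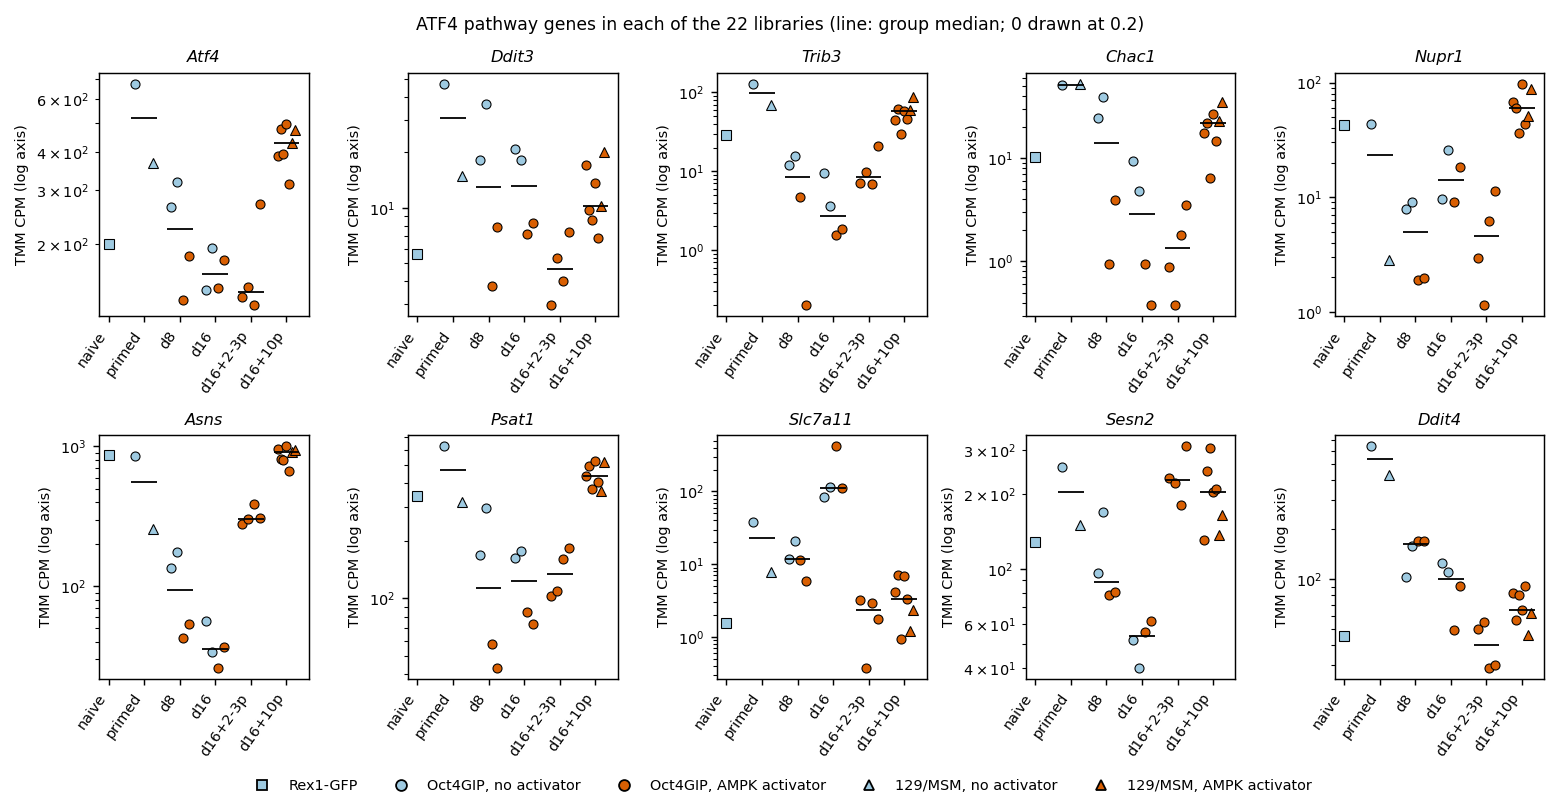
TMM-scaled CPM on a log axis for each gene (panel) in each library (point), ordered from naive and primed cells through d8 and d16 cultures to reverted cells. Lines are group medians, colours show an AMPK activator, given up to d16 for reverted cells, and shapes the line. Atf4, Trib3, Chac1, Nupr1, Asns and Psat1 were higher in all 7 d16+10p libraries than in all 4 d16+2–3p libraries, where 5.97% of all genes were. That contrast led to the choice of the pathway and carries no test. Slc7a11 peaked at d16 with 416 CPM.

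The first question was how the pathway stood in primed mEpiSCs and what became of it in the cultures before expansion. It was mostly high in primed cells and lower in the 8 cultures. In the fit of 22 libraries as 6 groups, 7 of 10 genes were lower in d8 and d16 cultures than in primed mEpiSCs (edgeR's quasi-likelihood test, adjusted p under 0.05), where 19.4% of 18739 genes were lower, and none was higher, where 18.1% were. The median difference of the 10 genes was −1.62 on the log2 scale, against 0.04 over all genes tested.

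Atf4, the central transcription factor of the response (chromosome 15, 80255184 to 80257541, GRCm38), had 672 CPM in primed Oct4GIP and 369 CPM in primed 129/MSM mEpiSCs. In the cultures it lay between 131 CPM in AICAR d8 and 319 CPM in 2iL d8, and no culture reached a primed library. The log2 difference was −1.44 ± 0.27 (SE, adjusted p = 3.88e-04, edgeR). Trib3 (chromosome 2, 152337422 to 152344032), a pseudokinase that ATF4 induces and that feeds back on it, had 127 and 69.2 CPM in primed mEpiSCs and between 0 counts in AICAR+LIF d8 and 15.8 CPM in 2iL d8. Its log2 difference of −3.86 ± 0.48 (adjusted p = 5.81e-06) was the lowest of the 10 genes. Ddit3, which encodes the stress factor CHOP (chromosome 10, 127290774 to 127296288), did not pass: it had 46.7 and 14.8 CPM in primed and 3.79 to 36.5 CPM in culture libraries, which overlapped.

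The enzymes showed the same order of groups. Asns, asparagine synthetase (chromosome 6, 7675169 to 7693254), had 857 CPM in primed Oct4GIP and 256 CPM in primed 129/MSM mEpiSCs, against at most 177 CPM in any culture. It was lower by a log2 difference of −3.12 ± 0.35 (adjusted p = 1.74e-06). Psat1 of serine synthesis (chromosome 19, 15904678 to 15947337) had 623 and 318 CPM in primed and 43.5 to 296 CPM in culture libraries, again without overlap (log2 difference −1.80 ± 0.41, adjusted p = 0.00197). Chac1, which degrades glutathione (chromosome 2, 119351229 to 119354381), had 51.1 and 51.8 CPM in the primed lines, the closest pair among these genes, and at most 39.4 CPM in culture (log2 difference −2.52 ± 0.68, adjusted p = 0.00627). Ddit4, the mTORC1 inhibitor also called REDD1 (chromosome 10, 59949669 to 59951834), had 636 and 426 CPM against 49.3 to 171 CPM (log2 difference −2.17 ± 0.27, adjusted p = 5.97e-06). Sesn2, a stress-induced leucine sensor (chromosome 4, 132492032 to 132510501), had 257 and 151 CPM against 40.1 to 170 CPM, with 2iL d8 above primed 129/MSM (log2 difference −1.43 ± 0.29, adjusted p = 6.18e-04).

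The remaining genes did not separate the groups. Nupr1, a small stress-induced chromatin protein (chromosome 7, 126623249 to 126630861), had 43.8 CPM in primed Oct4GIP but 2.84 CPM in primed 129/MSM mEpiSCs, and 1.89 to 25.7 CPM in cultures, all below primed Oct4GIP and on both sides of primed 129/MSM. Slc7a11, the cystine importer of the xCT system (chromosome 3, 49892526 to 50443614), had 37.5 and 7.90 CPM in primed libraries and 5.93 to 416 CPM in cultures. Its log2 difference was 1.14 ± 0.66 (adjusted p = 0.181).

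The primed group rested on 2 libraries of different lines. Without the Oct4GIP library, the lone 129/MSM library being assumed to vary like the other groups, Atf4 (adjusted p = 0.0566), Psat1 (adjusted p = 0.109) and Sesn2 (adjusted p = 0.0589) were no longer called, the log2 difference of Nupr1 was 1.78 and that of Slc7a11 2.65, neither called. Without the 129/MSM library, Nupr1 was called lower, at −2.19 (adjusted p = 0.00902), and without 2iL d8 Ddit3 was called lower, at −1.37 (adjusted p = 0.0334). The fibroblast markers moved with this comparison, with 6 of 8 higher in cultures, and so did the primed epiblast markers, with 5 of 5 lower. Their part in it was not tested. Primed mEpiSCs were kept with FGF2 and Activin A, whereas the cultures were in Basal medium, which contains serum, with neither factor added. Medium and cell state therefore cannot be told apart in this comparison.

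Among the other pathway genes, 36 of 69 were lower and 2 higher in cultures than in primed mEpiSCs, where 19.4% and 18.1% of all genes were. All 11 aminoacyl-tRNA synthetases tested were lower, with Gars, which charges tRNA with glycine, at −2.02 ± 0.20 on the log2 scale and Eprs, which charges glutamate and proline, at −1.25 ± 0.16. Of 10 amino acid and one-carbon enzymes, 6 were lower. Of 8 amino acid transporters, 5 were lower, among them Slc7a3 (−3.86 ± 0.42) and Slc1a5, which imports glutamine (−3.04 ± 0.34). Among the enzymes, Cth, which makes cysteine, had a log2 difference of −8.02 ± 0.47, and Mthfd2, of the mitochondrial folate cycle, −3.57 ± 0.37. Of 16 ER chaperones and sensors of the unfolded protein response, 3 were lower and 1, Dnajb9, was higher (1.36 ± 0.26).

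The next question was whether AICAR in the medium moved these genes. With AICAR or AICAR+LIF (4 libraries) against Basal or 2iL (4 libraries) and the day in the model, 4 of 10 genes were lower, where 5.51% of 15473 genes were, and none was higher, where 3.39% were. The median log2 difference of the 10 genes was −0.94, against −0.03 over all genes. The 4 were Chac1, Psat1, Ddit3 and Trib3. Of the libraries without AICAR, those in 2iL also held LIF and the inhibitors of MEK and GSK3, so that the pooled difference is not that of AICAR alone. At d8, 2iL lay above Basal for all 10 genes, where 44.5% of 18739 genes did, and at d16 for 4, where 43.5% did.

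Chac1 had 24.3 CPM in Basal d8, 39.4 in 2iL d8, 9.42 in Basal d16 and 4.81 in 2iL d16. With AICAR it had 0.947 CPM at d8 and 0.936 at d16, and with AICAR+LIF 3.96 and 0.376 CPM. Each AICAR library held at most 3 counts, 7 in all, so that Chac1 was at the floor in all 4 and the groups did not overlap. The ratio of summed levels was 0.0546 (interval 0.0217 to 0.114), and the fitted log2 difference of −3.59 ± 0.49 (adjusted p = 0.00871, edgeR) depends on the prior count. It was the only one of the 4 calls that was kept when any of the 8 libraries was left out (adjusted p from 0.00308 to 0.0391).

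Psat1 had 169, 296, 163 and 176 CPM without AICAR (Basal d8, 2iL d8, Basal d16, 2iL d16) and 57.8, 43.5, 84.9 and 73.8 CPM with it (AICAR d8, AICAR+LIF d8, AICAR d16, AICAR+LIF d16). No AICAR library reached the lowest of the others, at either day. The log2 difference was −1.56 ± 0.26 (adjusted p = 0.0137), and it was not called without AICAR d8 (adjusted p = 0.0652). Ddit3 had 18.1, 36.5, 20.7 and 18.0 CPM without and 3.79, 7.91, 7.18 and 8.28 CPM with AICAR in the same order, again without overlap. Its log2 difference of −1.68 ± 0.35 (adjusted p = 0.0263) was not called without AICAR d8, AICAR+LIF d8, Basal d16, AICAR d16 or AICAR+LIF d16 (adjusted p up to 0.0785).

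Trib3 had 11.9 and 15.8 CPM in Basal and 2iL at d8, 9.61 and 3.61 CPM at d16, and 4.74, 0, 1.56 and 1.88 CPM in the AICAR libraries. AICAR d8 lay above 2iL d16, so the groups overlapped over both days but not within a day, and AICAR+LIF d8 had 0 counts, where 3 counts were worth 5.93 CPM. The log2 difference of −2.03 ± 0.53 (adjusted p = 0.0491) was called only when 2iL d16 was the library left out, and with each of the other 7 left out the adjusted p was 0.0803 to 0.125. Non-overlap downward over all 8 libraries held for Ddit3, Chac1 and Psat1 and for 6.81% of all genes.

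Asns fell just short: it had 135, 177, 56.5 and 33.7 CPM without and 42.6, 53.4, 26.2 and 36.9 CPM with AICAR (log2 difference −1.05 ± 0.28, adjusted p = 0.0533). AICAR+LIF d16 lay above 2iL d16, and without 2iL d16 Asns was called lower (adjusted p = 0.0102). It was also called by DESeq2 (adjusted p = 0.0113), in the model of 22 libraries (0.0126), without the filter on low counts (1.44e-04) and with the stricter filter of 10 counts in each library (0.0379). Atf4 itself had 265, 319, 141 and 193 CPM without and 131, 182, 143 and 176 CPM with AICAR, a log2 difference of −0.44 ± 0.22 (adjusted p = 0.226). With no term for the day, none of the 10 genes was called (Psat1 adjusted p = 0.0643, Ddit3 0.0794, Chac1 0.086, Trib3 0.158), and 14 of all genes were. The summed fibroblast markers overlapped, at 2656 to 18530 CPM with and 3210 to 49255 CPM without AICAR. Of these 8 markers, 2 were called higher with AICAR, Postn (log2 difference 1.80, adjusted p = 0.0117) and Pdgfrb (0.84, adjusted p = 0.0387), as was Dnmt3b of the 5 primed epiblast markers (1.24, adjusted p = 0.025), and their part in the AICAR differences was not tested. At d8, 9 of 10 genes were lower in both AICAR libraries than in Basal and 2iL, all but Ddit4, where 37% of all genes were. At d16 it was 5 of 10 (Chac1, Ddit3, Ddit4, Psat1 and Trib3), where 24% were. The AICAR libraries at d8 were the shallowest of all, with 956357 counts in AICAR and 438771 in AICAR+LIF, against 2860985 in Basal and 2396575 in 2iL. Depth and AICAR thus differed together at d8, and Chac1 and Nupr1 had at most 2 counts in either AICAR library there.

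**Figure D2:**
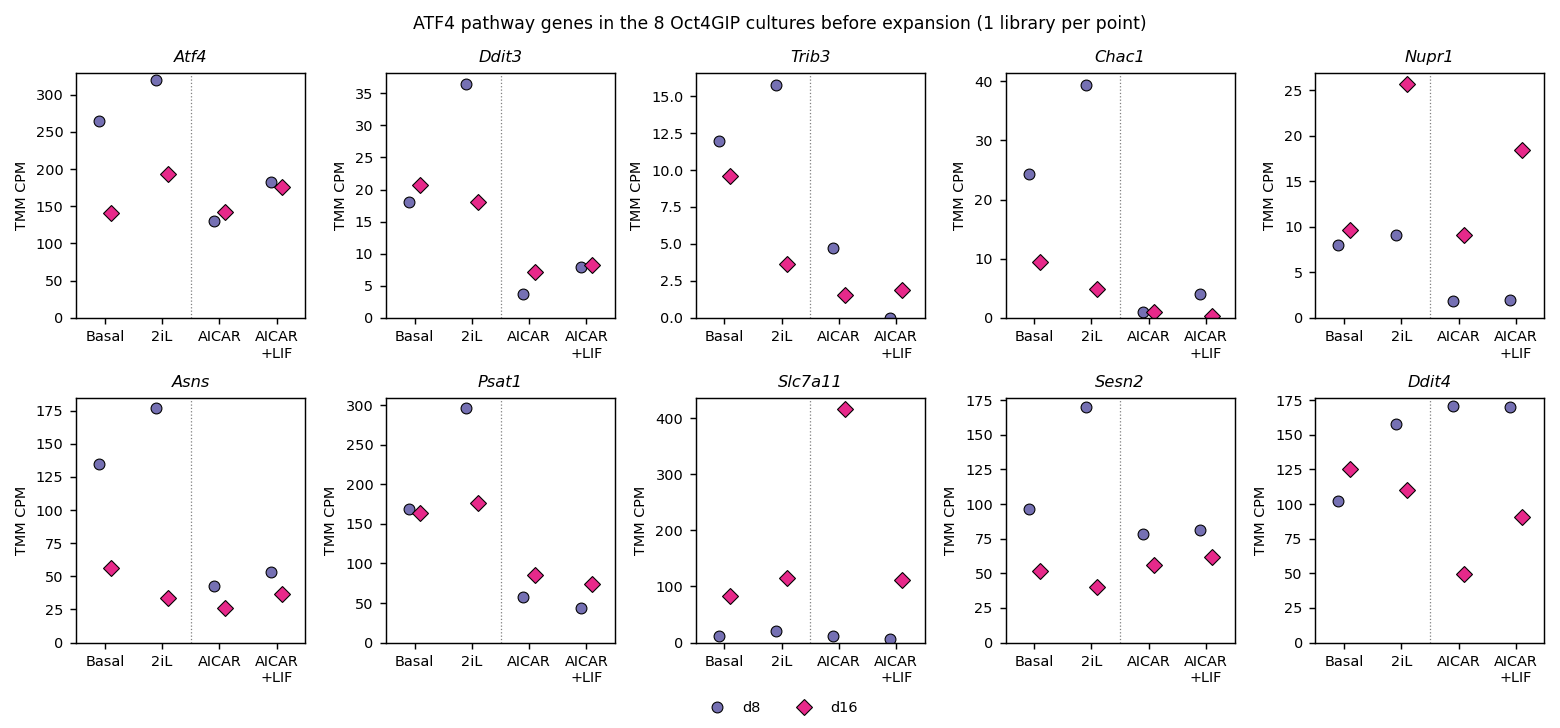
TMM-scaled CPM (linear axis from 0) of each gene in Basal, 2iL, AICAR and AICAR+LIF cultures at d8 (circles) and d16 (diamonds), 1 library per point and no error bar. Chac1, Psat1 and Ddit3 lay lower in all 4 AICAR libraries, and Slc7a11 stood at 416 CPM in AICAR d16.

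Whether the AICAR difference itself changed between d8 and d16 was tested as an interaction. None of the 10 genes was called by edgeR, DESeq2 or limma voom, and 4 had an unadjusted p under 0.05 by edgeR (Asns, Psat1, Sesn2 and Ddit4), as did 2272 of all genes. Over all genes, 0.0452% were called higher and 0.0905% lower. The largest log2 differences between the days' effects were 2.08 ± 0.98 for Slc7a11 (adjusted p = 0.376) and 1.65 ± 1.06 for Nupr1 (adjusted p = 0.523), and that of Ddit4 was −1.28 ± 0.45 (adjusted p = 0.249). Without the filter on low counts Slc7a11 (adjusted p = 3.69e-04) and Ddit4 (adjusted p = 0.0272) were called.

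Part of the wider pathway was lower with AICAR. Of 67 other genes tested, 8 were lower, where 5.51% of all genes were, and 2 were higher, where 3.39% were. Lower were Atf5, a related factor (log2 difference −2.10 ± 0.35), the enzymes Psph (−1.63 ± 0.30) and Aldh1l2 (−1.92 ± 0.36) among 3 of 9 tested, and the neutral and cationic amino acid transporters Slc1a4 (−1.81 ± 0.26) and Slc7a3 (−2.06 ± 0.46). Fgf21, a secreted stress hormone (−4.36 ± 0.90), and the lipoprotein receptor gene Vldlr (−1.96 ± 0.41) were lower as well. Eif2s1, which encodes the phosphorylated subunit of eIF2, was higher (0.74 ± 0.13, adjusted p = 0.0183), and so was Eif2b5 of its exchange factor (0.64 ± 0.15, adjusted p = 0.0391). No eIF2 kinase, tRNA synthetase or ER chaperone gene was called. Without normalization factors, 807 genes were higher and 677 lower with AICAR, against 525 and 852 with TMM.

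Between d8 and d16, calls among the 10 genes went in both directions, as did those among all genes tested. With AICAR in the model, 2 of 10 were higher at d16 (Slc7a11 and Nupr1), where 17.5% of 15473 genes were, and 3 were lower (Chac1, Asns and Sesn2), where 12.7% were. The median log2 difference was −0.55, against 0.00 over all genes. Slc7a11 had 11.9, 20.7, 11.4 and 5.93 CPM at d8 (Basal, 2iL, AICAR, AICAR+LIF) and 82.7, 114, 416 and 111 CPM at d16. Every d16 library was above every d8 library, and AICAR d16 stood far above the others. The log2 difference was 3.48 ± 0.57 (adjusted p = 0.00447), and the call was kept with each library left out (lowest value 2.94, without AICAR d16).

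Nupr1 had 7.96, 9.12, 1.89 and 1.98 CPM at d8 and 9.61, 25.7, 9.05 and 18.4 CPM at d16, higher in each of 4 media but overlapping between the days, since AICAR d16 lay below 2iL d8. The log2 difference of 1.57 ± 0.49 (adjusted p = 0.0422) was kept only without Basal d16, and with each of the others left out the adjusted p was 0.0542 to 0.146. By limma voom it was 1.05 (adjusted p = 0.191), and with the 4 media as a block 1.40 (adjusted p = 0.0546), the only one of the 5 calls that the block lost. Asns (log2 difference −1.24 ± 0.29, adjusted p = 0.0144), Chac1 (−1.96 ± 0.44, adjusted p = 0.0132) and Sesn2 (−1.01 ± 0.26, adjusted p = 0.0211) were lower at d16 in each of the 4 media, though for Chac1 in AICAR the 2 values were 0.947 and 0.936 CPM. Chac1 was not called without 2iL d8 (adjusted p = 0.0762), nor Sesn2 without Basal d16 (adjusted p = 0.0563) or 2iL d16 (adjusted p = 0.0526).

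Of the 8 fibroblast markers, 6 were called higher at d16, and their summed level was 3210, 3316, 3086 and 2656 CPM at d8 and 5462, 49255, 16380 and 18530 CPM at d16, in the same order of media. Slc7a11 was highest in AICAR d16 and the fibroblast sum in 2iL d16, and their part in each other was not tested. Among the wider genes 16 of 67 were higher and 7 lower at d16, where 17.5% and 12.7% of all genes were. The ER chaperones and sensors had 9 of 16 higher, led by Dnajc3 (log2 difference 1.37 ± 0.18) and Calr (1.26 ± 0.17), while in the AICAR comparison none of these 16 was called. Without normalization factors, 2298 genes were higher and 2549 lower at d16, against 2710 and 1963 with TMM, and the median of all genes shifted by −0.12 on the log2 scale. 2iL at d8 was above Basal d8 for all 10 genes, where 44.5% of 18739 genes were, and 2iL at d16 above Basal d16 for 4, where 43.5% were, each a single pair of libraries with no test.

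Reverted cells early after the switch to 2iL had low levels of most of these genes. In d16+2–3p cells, 6 of the 8 genes that could be tested were lower than in primed mEpiSCs, where 20.3% of 18739 genes were, and none was higher, where 18% were. Their median log2 difference was −2.20, against −0.04 over all genes. In d16+10p cells, 2 of the 8 were lower, where 19.9% of genes were, none was higher, where 16.7% were, and the median was −0.56, against −0.01. Both comparisons used the same primed libraries, and the reverted libraries are those that led to the choice of Chac1 and Nupr1, which are therefore described without a test. The tests of the other 8 genes, and of the wider lists below, used the same libraries and so are not independent of that choice. The step from 6 calls to 2 is not a test between passages. Medium also differed, with FGF2 and Activin A for primed and 2iL for reverted cells, and cannot be told apart from state.

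Atf4 had 134, 144, 125 and 270 CPM at d16+2–3p (AICAR 2p, AICAR+LIF 2p, AICAR 3p, AICAR+LIF 3p, the order used below). It ranged from 316 to 497 CPM at d16+10p, median 431 CPM, above every early library and around the primed 129/MSM level of 369 CPM. The log2 difference from primed was −1.63 ± 0.31 at d16+2–3p (adjusted p = 3.77e-04, edgeR) and −0.29 ± 0.29 at d16+10p (adjusted p = 0.477). Ddit3 had 2.96, 5.32, 3.99 and 7.38 CPM early and 6.85 to 19.99 CPM (median 10.2) late, so that the late range began within the early one. It was lower than primed at d16+2–3p (−2.64 ± 0.62, adjusted p = 0.00211) and not called at d16+10p (−1.33 ± 0.53, adjusted p = 0.0562).

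Trib3 had 7.10, 9.88, 6.90 and 21.1 CPM early and 29.3 to 87.0 CPM (median 58.4) late. Of the late libraries, only AICAR+LIF of 129/MSM (87.0 CPM) reached the primed range of 69.2 to 127 CPM, and the others lay below it. The log2 difference from primed was −3.12 ± 0.57 early (adjusted p = 2.29e-04) and −0.83 ± 0.50 late (adjusted p = 0.206). For Atf4, Ddit3 and Trib3 the 3-passage AICAR+LIF library was the highest of the 4 early ones.

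Chac1, the gene with the lowest early levels against primed, had 0.888, 0.38, 1.82 and 3.51 CPM, from 3, 1, 5 and 10 counts, at d16+2–3p. At d16+10p it had 17.7 CPM in AICAR, 22.1 in AICAR+LIF, 6.47 in A769662, 26.8 in A769662+LIF and 14.6 in metformin+LIF of Oct4GIP, and 22.9 in AICAR and 35.3 in AICAR+LIF of 129/MSM. All 7 were above all 4 early libraries and below both primed libraries. The ratio of summed levels, late to early, was 12.4. Nupr1 had 2.96, 1.14, 6.17 and 11.2 CPM early and, in the same order as Chac1, 67.1, 60.0, 36.4, 96.5, 43.2, 50.6 and 87.4 CPM late. No late library overlapped an early one, and the ratio was 11.5. Both ratios are descriptions without an interval, since this contrast led to the choice of the pathway. Against primed mEpiSCs the fitted log2 difference of Nupr1 was −2.09 early and 1.44 late, but primed Oct4GIP had 43.8 and primed 129/MSM 2.84 CPM. Without the Oct4GIP primed library the early value was 0.91, and without the 129/MSM one −3.001. The late value was 4.44 and 0.52 in those fits.

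Asns had 278, 301, 390 and 306 CPM early and 673 to 1000 CPM (median 914) late, with primed 129/MSM at 256 CPM below every reverted library and primed Oct4GIP at 857 CPM inside the late range. It was called in neither comparison (−0.80 ± 0.42, adjusted p = 0.139, and 0.64 ± 0.42, adjusted p = 0.242). Without the 129/MSM primed library it was lower early, at −1.41 (adjusted p = 0.0164), and without the Oct4GIP one higher late, at 1.76 (adjusted p = 0.0195). Psat1 had 103, 109, 161 and 183 CPM early and 363 to 522 CPM (median 437) late, the late range lying between the primed levels of 318 and 623 CPM. Its early difference from primed was −1.76 ± 0.48 (adjusted p = 0.00656) and its late one −0.08 ± 0.46 (adjusted p = 0.915).

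Slc7a11 stayed low in all reverted cells, at 3.25, 0.38, 2.91 and 1.76 CPM early and 0.924 to 7.14 CPM (median 3.28) late, below both primed libraries, from at most 22 counts in a library. It was lower than primed early (−3.38 ± 0.77, adjusted p = 0.00171) and late (−2.60 ± 0.64, adjusted p = 0.00299). Ddit4 had 49.4, 55.1, 29.0 and 30.2 CPM early and 45.7 to 90.8 CPM (median 65.2) late, far under the primed 426 and 636 CPM. Its differences from primed were −3.69 ± 0.33 (adjusted p = 6.17e-08) and −2.94 ± 0.27 (adjusted p = 6.92e-08), and both calls were kept with each library left out. Sesn2 was called in neither comparison: it had 233, 222, 181 and 311 CPM early and 131 to 307 CPM (median 204) late, overlapping each other and primed mEpiSCs.

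Calls against primed mEpiSCs leaned on the Oct4GIP primed library. Without it, Ddit3 (adjusted p = 0.119), Psat1 (adjusted p = 0.141) and Slc7a11 (adjusted p = 0.16) were not called early, and Slc7a11 was not called late (log2 difference −1.09, adjusted p = 0.403). Ddit3 became a late call without primed 129/MSM (adjusted p = 0.021) or without AICAR+LIF of 129/MSM (adjusted p = 0.037). The primed epiblast markers summed to 440 to 644 CPM at d16+2–3p, a sum carried by Dnmt3b (1153 to 1795 counts, against 648 and 2738 in primed libraries), and to 80.3 to 255 CPM at d16+10p. Fgf5 had 1 to 8 counts at d16+2–3p, against 91 and 1008 in primed libraries, Otx2 14 to 50, against 227 and 1263, and Pou3f1 5 to 12, against 35 and 170. Of the 5 markers, 3 were called lower than in primed mEpiSCs early and 4 late. Their part in the differences between states was not tested.

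**Figure D3:**
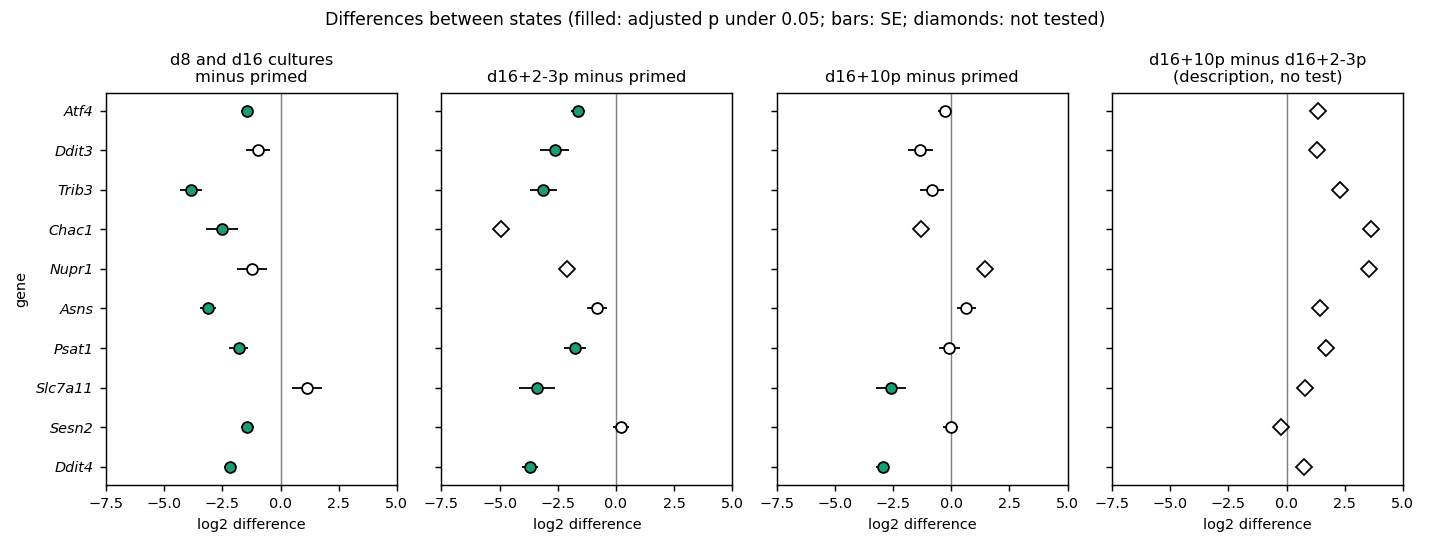
Fitted log2 differences of the 10 genes between states, with standard errors as bars and filled points where adjusted p was under 0.05; diamonds carry no test and no bar. Most genes lay left of 0 in cultures and at d16+2–3p, with medians of −1.62 (10 genes) and −2.20 (8 genes), and nearer to 0 at d16+10p, with a median of −0.56 (8 genes). The reverted libraries also led to the choice of the pathway.

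Set directly against each other, 9 of 10 genes had a higher fitted level at d16+10p than at d16+2–3p, with a median log2 difference of 1.39 against 0.00 over all genes. These values follow from the choice of the pathway and carry no test. Chac1 (3.62), Nupr1 (3.54) and Trib3 (2.29) had the largest differences. Psat1 (1.68), Asns (1.45), Atf4 (1.34) and Ddit3 (1.31) followed, Slc7a11 (0.78) and Ddit4 (0.75) differed less, and Sesn2 was at −0.24. Atf4, Trib3, Chac1, Nupr1, Asns and Psat1 did not overlap between the passages, where 5.97% of all genes did not overlap upward and 6.27% downward. At the threshold used elsewhere, 4.75% of genes were higher and 4.61% lower at d16+10p.

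The early libraries were all Oct4GIP with AICAR, whereas the late ones also held other activators and 129/MSM. Limited to the Oct4GIP libraries of AICAR and AICAR+LIF, 2 against 4, the differences were 3.56 for Chac1, 3.55 for Nupr1, 2.22 for Trib3 and 1.36 for Atf4, and the median of the 10 was 1.45. Without the 3-passage AICAR+LIF library, the early one nearest to the late cells, Chac1 differed by 4.27, Nupr1 by 4.18 and Trib3 by 2.78. Over the 11 libraries left out in turn, the median ranged from 1.32 to 1.62.

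**Figure D4:**
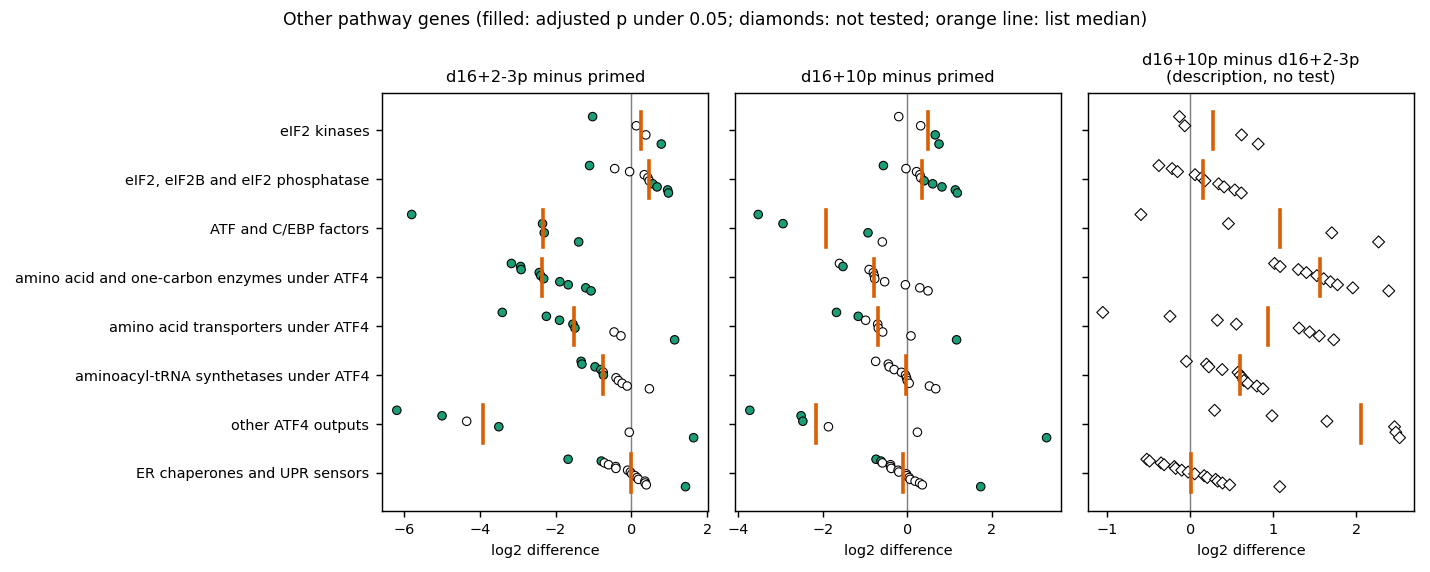
Fitted log2 differences of other pathway genes (points), by list, between reverted and primed cells and between passages; filled points had an adjusted p under 0.05, diamonds in the panel of passages carry no test, and orange lines are list medians. The 10 amino acid and one-carbon enzymes lay left of 0 at d16+2–3p, all filled, with a median of −2.35. The reverted libraries also led to the choice of the pathway.

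Other genes of the pathway had the same order in parts. Against primed mEpiSCs, 31 of 69 were lower and 8 higher at d16+2–3p, where 20.3% and 18% of all genes were. At d16+10p 12 were lower and 10 higher, where 19.9% and 16.7% of all genes were. All 10 amino acid and one-carbon enzymes were lower early (median −2.35), for example Aldh18a1 of proline synthesis (−2.31 ± 0.40) and Phgdh, the first enzyme of serine synthesis (−2.92 ± 0.50). Late, only Phgdh among them was called lower (−1.52 ± 0.44, adjusted p = 0.0097). Atf3, a factor induced with Ddit3, was lower early (−5.80 ± 0.87) and late (−3.53 ± 0.63), and so was Ero1l, an oxidase of the ER (−3.50 ± 0.25 and −2.51 ± 0.21). Of the 6 other ATF4 outputs, Ero1l among them, 3 were lower and 1 was higher, both early and late. Of 8 amino acid transporters, 5 were lower and 1 higher early. Late, 2 transporters were lower, among them Slc3a2 (−1.16 ± 0.26), and 1 was higher, Slc7a1 (1.16 ± 0.32).

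Among the kinases of eIF2, Eif2ak1, which senses heme deficiency, was higher than in primed mEpiSCs both early (0.79 ± 0.23) and late (0.66 ± 0.21). Eif2ak4, which senses uncharged tRNA, was lower early (−1.02 ± 0.24) and not called late (−0.21, adjusted p = 0.512). Of the 10 genes of eIF2, eIF2B and the eIF2 phosphatase, 4 were higher and 1 lower early, and 5 were higher and 1 lower late. Between passages, in the contrast behind the choice and so without a test, the median log2 difference was 1.57 over the 10 amino acid and one-carbon enzymes, 2.06 over 6 other outputs, 0.93 over 8 amino acid transporters, 0.60 over 11 tRNA synthetases and 0.01 over the 16 ER chaperones and sensors.

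The reference naive mESCs were a single library of another line. Among the 7 d16+10p libraries, their levels fell inside the range for Asns (866 CPM), Nupr1 (42.2), Chac1 (10.2) and Slc7a11 (1.55), and under it for Atf4 (200 CPM), Psat1 (344), Sesn2 (128), Ddit4 (45.3), Trib3 (28.5) and Ddit3 (5.59), where 11.1% of 18739 genes lay under all 7 libraries and 14.9% above. Ddit4, Sesn2, Psat1 and Trib3 missed the lowest d16+10p library narrowly (45.7, 131, 363 and 29.3 CPM), while Atf4 did so by more (316 CPM). Set beside the 4 d16+2–3p libraries, naive mESCs were above all for Asns, Chac1, Nupr1, Psat1 and Trib3, where 30.5% of genes were, and below all for Sesn2, where 28.9% were. The single naive library was not tested against the other groups.

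Among the d16+10p libraries, A769662 without LIF had the lowest Chac1 (6.47 CPM), Nupr1 (36.4), Trib3 (29.3) and Slc7a11 (0.924, at the floor of 3 counts) and the highest Sesn2 (307 CPM). A769662+LIF had the highest Nupr1 (96.5), Asns (1000), Psat1 (522) and Atf4 (497 CPM). Metformin, given only with LIF, had the lowest Atf4 (316 CPM), Asns (673) and Ddit3 (6.85) and the highest Ddit4 (90.8). Each of these is 1 library, so that the values have no replicate check.

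LIF given together with the activator up to d16 was compared in 5 pairs of expanded libraries matched for line, activator and passage. Both libraries of each pair then grew in 2iL, and so with LIF. None of the 9 genes tested was called by edgeR, DESeq2 or limma voom, and over all 12821 genes 0% were higher and 0% lower, with 310 genes at an unadjusted p under 0.05. At that unadjusted level 5 genes were higher with LIF, Trib3, Atf4, Psat1, Chac1 and Nupr1, each with an adjusted p of 0.9998. Trib3 was higher by 0.77 ± 0.17 on the log2 scale and in 5 of 5 pairs: 7.10 and 9.88 CPM without and with LIF at 2 passages, 6.90 and 21.1 at 3 passages, 44.2 and 60.7 at 10 passages, 29.3 and 58.4 for A769662, and 60.4 and 87.0 for 129/MSM. Atf4 (0.39 ± 0.14) and Psat1 (0.29 ± 0.09) were also higher in 5 of 5 pairs, Chac1 (0.88 ± 0.31) in 4 and Nupr1 (0.63 ± 0.26) in 3. Asns (−0.02 ± 0.10) and Ddit4 (−0.05 ± 0.15) were close to 0. Without the filter on low counts Trib3 (adjusted p = 0.0019) and Atf4 (adjusted p = 0.0394) were called. Slc7a11 did not pass the filter on low counts here.

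**Figure D5:**
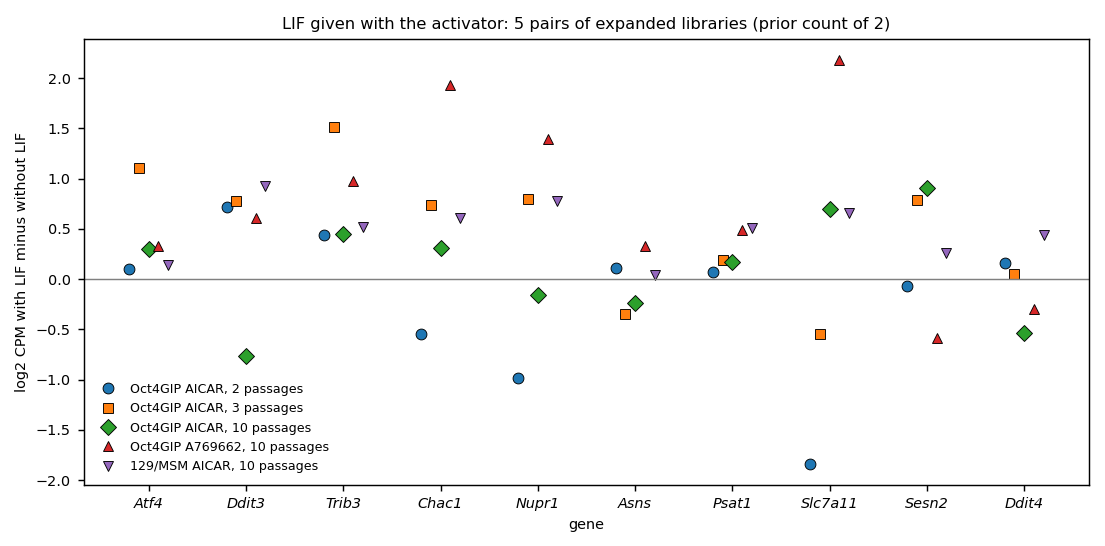
Log2 CPM (prior count of 2) with LIF minus without LIF in 5 pairs of expanded libraries, for each gene. LIF here was given with the activator up to d16, and both libraries of a pair then grew in 2iL. Every point is a difference between 2 single libraries. Trib3, Atf4 and Psat1 lay above 0 in all 5 pairs, and Slc7a11, at a few counts in a library, spread from −1.84 to 2.18.

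The 129/MSM and Oct4GIP lines were compared in 3 states, primed, AICAR d16+10p and AICAR+LIF d16+10p. The primed lines also differed in culture, Oct4GIP cells on fibronectin in Ndiff 227 medium and 129/MSM cells on feeders in medium with Knockout Serum Replacement, so that line, medium and feeders cannot be told apart there. No gene of the 10 was called by edgeR, DESeq2 or limma voom, where 0.0926% of 12954 genes were higher and 0.0232% lower in 129/MSM, and 1 had an unadjusted p under 0.05. That gene was Slc7a11, lower in 129/MSM in 3 of 3 pairs: 7.90 against 37.5 CPM in primed, 1.23 against 4.12 in AICAR and 2.35 against 7.14 CPM in AICAR+LIF cells (log2 difference −1.92 ± 0.42, adjusted p = 0.17). In the expanded pairs it rested on 3 and 7 and on 6 and 22 counts. Without the filter on low counts it was called (adjusted p = 0.0115). Chac1 was higher in 129/MSM in 3 of 3 pairs by small amounts (0.35 ± 0.26, adjusted p = 0.696), and Nupr1 differed between the lines in primed cells (2.84 against 43.8 CPM) and was at 50.6 against 67.1 CPM in AICAR and 87.4 against 60.0 CPM in AICAR+LIF cells after 10 passages.

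By a fixed rule, the genes most like Chac1, Nupr1 and Trib3 over the 22 libraries were sought by Pearson's r of log2 CPM among 11182 genes with a mean log2 CPM of at least 3. The libraries share cell states, so that r mostly describes the order of those states. Those most like Trib3 were Mthfd2 (r = 0.967), Psat1 (0.932), Shmt2 (0.929), Pck2 (0.921) and Slc7a5 (0.915), all but Psat1 from the wider pathway lists. For Chac1 they were Sgsm1 (0.864), Aldh18a1 (0.842), Abcc1 (0.839), Atf4 (0.836) and Stc2 (0.826). For Nupr1, Mtarc2 (0.833), Jakmip1 (0.83), Lrch1 (0.813), Slc25a1 (0.811) and Pgm2 (0.802) came first, none of them on the lists.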

How the data were processed

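Bulk RNA-seq was made in 22 libraries of mouse cells. From single-end reads of stranded libraries, aligned by Bowtie2 2.2.5 with Ensembl release 100 transcripts (GRCm38, coding and noncoding) and filtered at MAPQ 1 or above, the authors deposited whole read counts per gene without normalization. Reads shared by near-identical genes may be lost or split. Deposited transcript counts and numbers of detected genes were not used here. Positions come from GENCODE M21 on GRCm38, and promoters from RefSeq on GRCm38.p6.

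Libraries were grouped by the labels into naive (1), primed (2), d16+2–3p (4), d16+10p (7), d8 (4) and d16 (4). The quasi-likelihood test of edgeR 4.0.16 in R 4.3.3 was used on all genes with TMM factors, filterByExpr and Benjamini-Hochberg adjustment at 0.05. States were compared in a model of 22 libraries in 6 groups, AICAR and day within the 8 culture libraries, and lines and LIF within pairs. Of the 10 genes, all passed the filter on low counts in each comparison except Slc7a11 in the LIF pairs. Alternatives used DESeq2 1.42.0, limma 3.58.1 (voom), other normalization or filters (none, or 10 counts in every library), other sets of libraries or covariates, and libraries or pairs left out in turn. The fits were first run on simulated counts. Figures and small tables were made in Python 3.11.15.

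The genes and lists were chosen with earlier results of these data known. All 10 genes are named, with at most the 2 genes of smallest adjusted p of each other list, in each comparison, and the 5 genes most like Chac1, Nupr1 and Trib3. Where values of other genes on the lists are given, this rule chose them, except the counts of primed epiblast markers and the late value of Eif2ak4, which were added after their values were seen.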

Additional observations from a re-analysis of the deposited data

Results flagged for a closer look

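Of 40 combinations of gene and group of 4 to 10 libraries, 2 held a library far from the others by Dixon's criterion, which chance alone flags in about 1 group in 20. Atf4 had 270 CPM in AICAR+LIF after 3 passages, where the next of the 4 d16+2–3p libraries had 144 CPM, and the gap took up 0.873 of the group's range. Slc7a11 had 416 CPM in AICAR d16, where the next of the 4 d16 cultures had 114 CPM, and the gap took up 0.905 of the range.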

How the results depend on the processing

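Of 128 alternatives of the 9 comparisons, 111 left the count of called genes within 1.5 times, or the median within 1 SD, of the value reported. Without the filter on low counts, 2 genes were called in the interaction of AICAR and day, 1 between lines and 2 with LIF. Where only genes with 10 or more counts in each library were tested, 2 were called for AICAR, 2 for the day, 1 at d16+10p and 3 at d16+2–3p. With no term for the day, 0 were called for AICAR. With single libraries left out, the counts were 1 to 5 for AICAR, 3 to 4 for the day, 4 to 8 for cultures against primed, 2 to 3 at d16+10p and 3 to 7 at d16+2–3p, and the lowest values for cultures and d16+2–3p came without primed Oct4GIP, which also turned the early value of Nupr1 to 0.91, against −3.001 without primed 129/MSM. The cause was not tested, except that fewer genes were tested under the stricter filter. Over all genes, calls for AICAR numbered 1377, but 3143 without and 792 with the stricter filter, 2232 by DESeq2, 14 with no term for the day, 2642 in the model of 22 libraries and 173 to 2618 with a library left out. The interaction called 21 genes, 332 by DESeq2, 0 by limma voom, 7 without normalization factors, 1146 without and 38 with the stricter filter and 0 to 701 with a library left out. Calls between lines numbered 15, 220 by DESeq2, 929 without and 4 with the stricter filter and 3 to 1051 with a pair left out. Calls with LIF numbered 44 without the filter. With the stricter filter the day called 2871 genes, cultures 3477, d16+10p 2880, and d16+2–3p 3195. The passages, a description, had 1753 genes past the threshold. They had 856 with the stricter filter, 698 in the Oct4GIP libraries of AICAR and AICAR+LIF, and 939 at the lowest with a library left out. The lowest counts with a library left out were 2232 for the day, 4115 for cultures and 4462 for d16+10p. Without normalization factors the median of all genes at d16+2–3p shifted by −0.13 on the log2 scale. The labels number no replicates, but the media pair d8 with d16: with the 4 media as a block 4 genes were called for the day, against 5, all but Nupr1 (1.40, adjusted p = 0.0546). The comparisons of line and LIF were paired by design. The shallowest libraries, AICAR+LIF d8 and then AICAR d8, limit low genes such as Chac1, Trib3 and Nupr1 in the cultures.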
